A study of Mus musculus with 4 samples.

Results

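The genes for 9 surface markers of blood stem and progenitor cells (Cd34, Cd93, Adgrg1, Ly6a, Prom1, Slamf1, Cd48, Cd38 and Procr) were examined for open chromatin in mouse acute myeloid leukemia (AML) cells. They were chosen by name as markers used to sort such cells, and are 9 of the 21938 protein-coding genes annotated on the autosomes, X and Y. Each gene was taken with 50 kb on either side, a stretch called its window. DNase-seq was used, in which the nuclease DNase I cuts accessible DNA in nuclei and the cut ends are sequenced. The cells came from the C57BL/6J strain, were labelled as AML and as differentiated in vitro, and had 1 donor in common. Their age was unknown, their sex was not collected, and the labels gave no treatment and no control. There were 2 biological replicates with 2 libraries each. The authors pooled the libraries of a replicate into 1 peak list and 1 hotspot list, so no value below carries a replicate error, and only the labels say that the replicates were separate. Among markers of cell types, 7 of 8 myeloid genes had a peak in both lists at a gene start, against 57.7% of all coding genes. Spi1, Cebpa, Mpo, Csf3r, Ptprc and Itgam were among them, and 6 of the 8 had it at the 5′ end. Elane had one in replicate 1 only. The hepatocyte genes Alb and Apoa1 had none, as did 29.4% of all coding genes. Markers of blood vessels and of other blood cells are given further below.

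Blood stem cells are rare cells of the bone marrow that renew themselves and give rise to all blood lineages, and they are told apart from their progeny by combinations of surface proteins. In the mouse, Ly6a (Sca-1), Slamf1 (CD150) and Procr (the endothelial protein C receptor) mark stem cells, whereas Cd48 and Cd34 are found on many of the progenitors that follow. Leukemic cells can carry several of these proteins at once. DNA that is accessible to DNase I at a gene start or at a distant site is a feature of regulatory elements. It does not by itself measure how much of the protein a cell carries.

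A shared peak is a window of 150 bp in the list of replicate 1 that overlapped a peak of replicate 2 by at least 1 bp. Each peak has a deposited score, used here only to rank peaks within a list, and the mean of its 2 percentile ranks, in which 100 is the strongest, gives its standing. The sequences below are shared peaks that carry the results. They are the strongest outside coding gene starts for 7 of the genes, the only one inside the Cd34 gene, the strongest inside Adgrg1, the Cd48 start, and an intron peak of Cd38. For Prom1, 1 of the 7, the printed peak is the strongest by its score in replicate 1 and not by mean rank. They are RefSeq GRCm38.p6 (mm10) plus-strand sequence, 5′ to 3′, and capitals mark matches to any of 13 short motifs.
Cd34 intron, chr1:194943636-194943785: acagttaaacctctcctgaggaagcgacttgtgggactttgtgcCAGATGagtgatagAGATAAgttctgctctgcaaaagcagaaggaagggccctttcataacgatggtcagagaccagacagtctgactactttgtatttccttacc
Cd93 window, chr2:148409336-148409485: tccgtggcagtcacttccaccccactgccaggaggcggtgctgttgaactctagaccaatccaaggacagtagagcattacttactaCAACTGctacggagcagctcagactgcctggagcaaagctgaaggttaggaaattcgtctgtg
Adgrg1 intron, chr8:95000716-95000865: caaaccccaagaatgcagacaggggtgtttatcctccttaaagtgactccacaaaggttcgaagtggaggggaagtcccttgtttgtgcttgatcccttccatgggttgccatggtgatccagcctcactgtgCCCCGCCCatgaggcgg
Ly6a window, chr15:74988636-74988785: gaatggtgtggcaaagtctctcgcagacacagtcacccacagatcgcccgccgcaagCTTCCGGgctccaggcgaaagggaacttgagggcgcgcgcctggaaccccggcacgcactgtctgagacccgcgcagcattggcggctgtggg
Prom1 window, chr5:44146556-44146705: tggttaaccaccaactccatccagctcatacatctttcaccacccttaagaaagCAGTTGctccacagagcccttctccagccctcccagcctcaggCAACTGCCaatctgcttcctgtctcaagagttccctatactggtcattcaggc
Slamf1 window, chr1:171849636-171849785: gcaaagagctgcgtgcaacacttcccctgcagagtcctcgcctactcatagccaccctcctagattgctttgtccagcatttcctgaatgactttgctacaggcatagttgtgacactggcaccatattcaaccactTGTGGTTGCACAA
Cd48 start, chr1:171682096-171682245: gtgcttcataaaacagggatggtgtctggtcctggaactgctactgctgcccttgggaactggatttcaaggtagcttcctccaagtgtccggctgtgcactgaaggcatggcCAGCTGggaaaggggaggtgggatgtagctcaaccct
Cd48 intron, chr1:171699136-171699285: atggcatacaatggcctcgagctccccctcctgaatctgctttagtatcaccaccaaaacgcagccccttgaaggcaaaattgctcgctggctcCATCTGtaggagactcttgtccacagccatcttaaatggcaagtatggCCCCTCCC
Cd38 window, chr5:43855916-43856065: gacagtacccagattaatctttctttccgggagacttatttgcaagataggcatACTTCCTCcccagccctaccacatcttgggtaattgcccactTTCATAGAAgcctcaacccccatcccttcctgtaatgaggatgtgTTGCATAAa
Cd38 intron, chr5:43882176-43882325: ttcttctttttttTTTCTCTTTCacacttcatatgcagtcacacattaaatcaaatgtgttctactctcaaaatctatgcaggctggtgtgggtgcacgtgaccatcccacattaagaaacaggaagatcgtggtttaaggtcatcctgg
Procr window, chr2:155755816-155755965: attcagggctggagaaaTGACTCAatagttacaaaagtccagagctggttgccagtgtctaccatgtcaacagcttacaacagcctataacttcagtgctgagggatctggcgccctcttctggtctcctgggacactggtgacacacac

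The motifs were exact letters sought on both strands. For blood factors of the ETS family these were GAGGAAGT, called PU.1-type ETS here, and the shorter core CCGGAAG that many members of the family bind. The letters sought for the RUNX factors, which are needed for blood stem cells to form, were TGTGGTT. Those for C/EBP factors, which drive the granulocyte lineage, were TTGCNNAA, and those for the stress-responsive AP-1 dimers TGANTCA. The GATA motif, read by factors of red cells and stem cells, was AGATAA, and the E-box motif of the basic helix-loop-helix factors was CAGNTG. The MYB motif, of a factor that keeps progenitors dividing, was AACTGNC, and that of the MEIS homeodomain factors was TGACAG. The STAT motif, of factors downstream of cytokine receptors, was TTCNNNGAA, and the KLF/SP motif of zinc-finger factors at many gene starts was GGGNGGGG. The IRF and CTCF motifs are given by name. Matches that overlap run together in the capitals, as a RUNX and a C/EBP match do at the end of the Slamf1 window peak and an E-box and a MYB match do in the Prom1 window peak. The Cd34 intron peak held an E-box match and a GATA match, the Procr window peak an AP-1 match, and the Cd38 window peak PU.1-type ETS, STAT and C/EBP matches. Over the 54 shared peaks in the windows that lay outside coding gene starts, an E-box match occurred in 20 (37.0%), against 37.0% of all 42117 such shared peaks in the data. The C/EBP motif occurred in 11 of the 54 (20.4%), against 12.7% of all. The IRF motif occurred in 3.70% against 2.13%, the ETS core in 3.70% against 2.56%, and the STAT motif in 1.85% against 4.14%. The other shares were for RUNX 9.26% against 7.84%, for PU.1-type ETS 5.56% against 7.48%, for AP-1 9.26% against 8.13%, for GATA 5.56% against 5.36%, for MYB 9.26% against 9.76%, for MEIS 14.8% against 12.7% and for KLF/SP 9.26% against 10.0%. CTCF matches were found in 3 of the 54 (5.56%), against 10.2% of all, and these lay in an intron of Prom1, in the neighbouring gene Bst1 in the Cd38 window, and downstream of Procr. These shares are descriptions of letters in small numbers of peaks, and no binding was measured.

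The first question was how many open sites the 9 loci held and how many recurred in both replicates. The windows together covered 1129018 bp in 7 separate stretches, since those of Slamf1 and Cd48 overlap, as do those of Cd38 and Prom1. They held 275 peaks of replicate 1, of which 67 (24.4%) were shared, against 26.1% of all peaks in the longer list of replicate 1. Of their 69 peaks in the list of replicate 2, 66 recurred in replicate 1, where 91.9% of the whole shorter list did. The other 3, in the windows of Adgrg1, Ly6a and Cd38, all lay inside a hotspot of replicate 1, a hotspot being a wider region dense in cuts. None of the 208 unshared peaks of replicate 1 lay in a hotspot of replicate 2, against 1.42% of such peaks in the whole list. Replicate 1 had 236754 distinct peaks and replicate 2 had 67559, and their depth was unknown, so a peak found in replicate 1 only cannot be told apart from a peak that replicate 2 was too shallow to show.

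Adgrg1, which encodes the adhesion receptor GPR56, had the most peaks: 56 in replicate 1, 18 in replicate 2 and 17 shared. Cd38, the gene of an enzyme that consumes NAD, followed with 40, 13 and 12. The Ly6a window held 28 peaks of replicate 1 and 9 shared, and the Cd34 window 21 and 7. Cd34 thus had few peaks in replicate 1 but the highest shared part, 33.3%, with Ly6a at 32.1%, Adgrg1 at 30.4%, and Prom1 and Cd38 at 30.0%. Procr had 26 peaks of replicate 1 with 6 shared (23.1%), Prom1 20 with 6, and Cd48 26 with 5 (19.2%). The lowest parts were those of Slamf1, with 3 of 25 (12.0%), and Cd93, with 3 of 40 (7.50%). Windows differ in length with the gene, and per 100 kb the shared peaks ran from 2.24 at Slamf1 to 12.2 at Adgrg1.

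**Figure D1:**
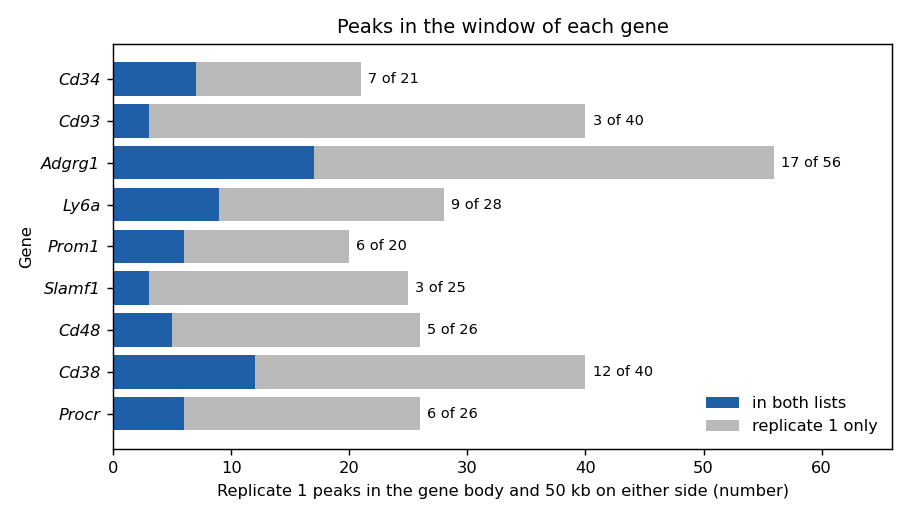
Number of replicate 1 peaks in the window of each gene (horizontal axis), split into those that overlapped a replicate 2 peak (blue) and those that did not (grey), with 1 list per biological replicate and no error bars. Adgrg1 had the most of both kinds, and Cd93 had 40 peaks with only 3 of them shared.

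The median over the 9 genes was 26 peaks of replicate 1 in the window, against 23 over all coding genes, and 6 shared peaks against 7. Outside coding gene starts the order turned, with a median of 6 shared peaks against 3. All 9 genes had at least 1 such peak, where 80.1% of coding genes did. Cd38 had 10 shared peaks outside coding starts, a number that 8.03% of coding genes reached, and Adgrg1 and Ly6a had 9 each. Cd34 had 7, Prom1 6, Cd48 and Procr 4 each, and Cd93 and Slamf1 3 each. The members of the list were longer than the typical gene, with a median of 23250 bp against 17425 bp, and the part of length in these counts was not tested.

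At the gene starts, fewer of the 9 genes had a shared peak than the background, while the count in replicate 1 alone was near it. A shared peak within 1 kb of any annotated transcript start was present at 2 of the 9 genes, Adgrg1 and Cd48, against 57.7% of coding genes. Counting replicate 1 alone, 7 of 9 had a start peak, against 70.5%, and 2 of 9, Ly6a and Cd38, had none in either list, against 29.4%. Taking only the 5′ end of the gene, 1 of 9 (Cd48) had a shared peak, against 52.7%. Another 5 (Cd34, Cd93, Prom1, Slamf1 and Procr) had a peak in replicate 1 and none in replicate 2, against 13.2%, and 3 (Adgrg1, Ly6a and Cd38) had no peak in either list, against 34.0%. The hotspots gave the same count: 1 of 9 genes had a replicate 2 hotspot at its 5′ end, against 53.6% of coding genes, and that was Cd48, with a −log10 q of 2.34 on a scale that stops at 100. The nearest shared peak lay at a median of 5120 bp from the 5′ end, against 580 bp over all coding genes.

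The base composition of these starts was measured as well, in 250 bp before and 50 bp after each 5′ end. CpG pairs are rare in most of the mouse genome and are kept at CpG islands, which many gene starts carry. The ratio of observed to expected CpG had a median of 0.329 over the 9 genes, against 0.525 over all coding genes, and the GC content 48.7% against 55.0%. Over all coding genes, starts with a shared peak had a median ratio of 0.759, those with a peak in replicate 1 only 0.400, and those with none 0.181. The ratio was under 0.525 at 8 of the 9 genes, from 0 at Cd38 to 0.392 at Prom1, and Procr stood above it at 0.710 without a shared peak. Of the coding genes under that median, 22.4% had a shared peak at the 5′ end. Cd48, with a ratio of 0.329, was the 1 of these 8 genes that did. The part of base composition in the peak states was not tested.

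**Figure D2:**
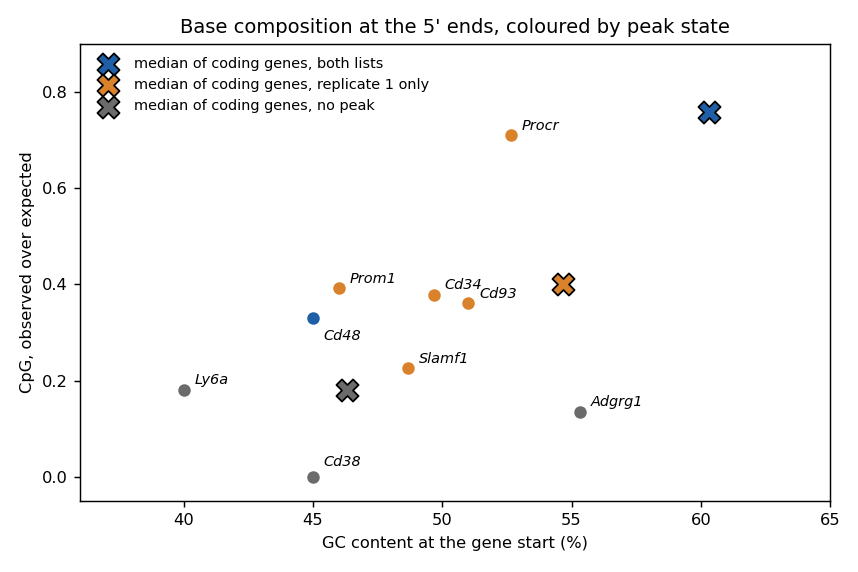
GC content (%) against the ratio of observed to expected CpG in the 300 bp at the 5′ end of each of the 9 genes (points), with crosses at the medians of all coding genes in each peak state; blue is a peak in both lists, orange a peak in replicate 1 only, grey no peak. All 9 genes lie left of and below the median of starts with a shared peak, and Procr is the nearest to it in CpG ratio.

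Cd34 encodes a sialomucin of progenitors and of the lining of blood vessels. Its start, at chr1:194938819 on the plus strand, was covered by a peak with a score of 129 in replicate 1, chr1:194938796-194938945, which takes in part of the 5′ UTR and held 3 KLF/SP matches. This was the strongest peak of the window without a counterpart. Replicate 2 had neither a peak nor a hotspot there. The shared peak nearest to the start lay 4892 bp into the gene, in an intron (first sequence above), with scores of 145 in replicate 1 and 47 in replicate 2 and a mean rank of 82.7. Another shared peak stood 10668 bp upstream, with scores of 143 and 39. The strongest of the window, chr1:194976296-194976445, with scores of 135 and 74 and a mean rank of 90.0, lay 37552 bp downstream of the Cd34 start, and its centre was 4 bp from a start of the long non-coding RNA A330023F24Rik. Of the 7 shared peaks, 5 lay beyond the 3′ end of Cd34, and 3 of these stood together, centred 4 and 226 bp from a start of that RNA and 9 bp from a start of the non-coding gene Gm16897.

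Prom1 encodes CD133, a protein with several membrane passes that marks stem cells of many tissues. Its window had 20 peaks of replicate 1 over the longest gene of the list, 108413 bp. Their scores ran from 39 to 127, where the median of the whole list was 74. The 3 peaks at its annotated starts had scores of 48, 52 and 69 in replicate 1 and none in replicate 2. A shared peak lay just beyond, 1441 bp into the gene, with scores of 49 and 17 and a mean rank of 13.6. Its centre was 149 bp from a start of the non-coding gene Gm16401. The shared peak with the highest score in replicate 1, 44599 bp upstream and printed above, had scores of 127 and 23 and a mean rank of 54.8. Another, 153821 bp downstream of the 5′ end and also in the Cd38 window, had scores of 105 and 35. It was centred 95 bp from a start of the non-coding gene Gm43183. Its mean rank was higher, which made it the strongest of the window by that measure. Introns of Prom1 held further shared peaks at 26401 bp, with scores of 122 and 22, and at 53241 bp, with scores of 87 and 17. The strongest peak in replicate 1 only had a score of 104 and lay 25639 bp upstream.

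Cd93 encodes a lectin-like receptor of early progenitors, monocytes and endothelium. Its start on the minus strand, at chr2:148443563, had a peak in replicate 1 with a score of 115, centred 8 bp upstream, and the 6 other peaks in the gene body had scores from 58 to 88. None of these recurred in replicate 2. All 3 shared peaks were far away. The strongest, 34152 bp downstream of the start and 1223 bp from the start of the neighbouring gene Thbd (thrombomodulin, a receptor of the clotting system), had scores of 138 and 54. The others lay 45508 bp and 48768 bp upstream, with scores of 143 and 44 and of 141 and 43. This window also held 3 of the 4 unshared peaks with a score of 140 or more in the 9 windows. These were chr2:148393276-148393425 with 146, chr2:148408156-148408305 at the start of Thbd with 143, and chr2:148397336-148397485 with 141. Of 3948 coding genes with at least 40 peaks of replicate 1 in the window, 13 (0.329%) had 3 shared peaks or fewer, and the median among them was 14. Cd93 was set beside these genes after its values were seen.

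Adgrg1 had the most annotated starts of the 9 genes, 16, followed by Prom1 with 15. Its annotated 5′ end, at chr8:94974751 on the plus strand, had no peak in either list. The RefSeq start 2358 bp further on had a peak in replicate 1 only, with a score of 71. All 5 shared peaks at its starts were at internal ones. The first, centred 9600 bp into the gene and 20 bp from an annotated start, had scores of 124 and 36. The next had 111 and 28 at 10440 bp, followed by 132 and 47 at 20940 bp and 134 and 63 at 27100 bp. The strongest, printed above, lay 26040 bp into the gene with scores of 144 and 71 and a mean rank of 91.6, its centre 90 bp from an annotated start. Upstream of the gene, 6 shared peaks lay between 7620 and 31980 bp from the 5′ end, of which the best ranked was chr8:94955176-94955325 with scores of 137 and 50. Downstream the window ran into Adgrg3, the gene of the related receptor GPR97, with a shared start peak of 147 and 71 and an intron peak of 149 and 64. That intron peak was the strongest of the window outside coding starts, with a mean rank of 91.4. The third gene of this receptor cluster, Adgrg5, had a start peak in replicate 1 only. The strongest peak without a counterpart had a score of 131 and lay 72420 bp from the 5′ end.

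Ly6a encodes Sca-1, a small protein held in the membrane by a lipid anchor. No peak of either list lay within 1 kb of any of its 6 annotated starts, and its gene body, of 3155 bp, held none at all. The nearest shared peak was 5120 bp downstream of the 5′ end (chr15:74998031, minus strand), with scores of 114 and 56. Behind it came a group of 5 shared peaks between 8760 and 9460 bp, with scores in replicate 1 of 114, 123, 126, 128 and 141. Their strongest partners in replicate 2 had scores of 60, 29 and 34, of which 60 and 29 each partnered 2 of them. The strongest of the group, printed above, had a mean rank of 87.7 and an ETS core match. Its centre was 39 bp from a start of the non-coding gene Gm37042, and its nearest coding start was that of Ly6i, at 5281 bp. Of the 9 shared peaks, 8 lay downstream of Ly6a and 1 upstream, at 23540 bp with scores of 86 and 14. The strongest peak in replicate 1 only had a score of 134, at chr15:74962696-74962845.

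The Ly6 genes are close relatives, and reads that fit several copies could not be placed with certainty. Their handling was not given in the sources used here. Of the 1970 stretches of 32 bases within 1 kb of the Ly6a 5′ end, 774 (39.3%) occurred once in the assembly, and some occurred up to 10 times. At Cd34, Cd93, Adgrg1 and Slamf1 every such stretch occurred once, and at Cd38, the other gene with no start peak, 99.3% did. At Prom1 it was 99.7%, at Procr 90.6%, and at Cd48 1477 of 1970 stretches did. Within the shared start peak of Cd48 itself, all 119 stretches occurred once. In the strongest Ly6a window peak all stretches occurred once, but in 3 of the other peaks of its group between 55.5% and 63.0% did. At Ly6a an absent start peak cannot be told apart from reads that were not placed.

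Procr encodes a receptor that binds protein C and marks the most immature stem cells. In replicate 1 it had 3 start peaks, with scores of 80, 104 and 52 at 194, 474 and 714 bp into the gene, and none in replicate 2. Its shared peak lay just past its 3′ end, 4774 bp from the start, with scores of 125 and 55 and a mean rank of 81.8. Of the other 5 shared peaks, 2 were at starts of neighbours: Edem2, a gene of protein quality control, with 147 and 90 and a mean rank of 96.6, and Mmp24, a membrane-bound protease gene, with 124 and 65. The Edem2 start was the best ranked of all shared peaks in the 9 windows. The other 3 had scores of 128 and 36, 104 and 36, and 101 and 22. The strongest peak in replicate 1 only had a score of 126 and lay in an intron of Edem2.

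Slamf1 and Cd48 belong to the SLAM receptors, which bind one another on blood cells and lie in a cluster on chromosome 1. Cd48 was the only 1 of the 9 genes with a shared peak at its 5′ end. That peak, centred 162 bp into the gene across the end of its first exon, had scores of 88 and 25 and a mean rank of 45.1, below the middle of the lists. A stronger shared peak lay 17202 bp into the gene in an intron, with scores of 123 and 46, and another 8918 bp upstream, with 127 and 41. The outer ones had 110 and 27, in an intron of Slamf7, and 74 and 17. Replicate 1 also had start peaks of 99 and 85 without a counterpart, and the strongest such peak of the window had a score of 106.

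Slamf1 itself showed little. Its start had a single peak in replicate 1 with a score of 59, centred 56 bp upstream, and the 4 others in its gene body had scores of 48 or less. No shared peak lay in the gene or upstream of it within the window. All 3 shared peaks were 48864 bp or more from the start, and 2 of these, with scores of 141 and 45 and of 149 and 64, were in introns of Cd84, the next SLAM gene. The second of them, printed above, had a mean rank of 91.4. The strongest peak in replicate 1 only, with a score of 140, also lay in an intron of Cd84.

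Cd38 had no peak within 1 kb of a start in either list, and the nearest of replicate 1 lay 3498 bp into the gene with a score of 90. It nevertheless had 12 shared peaks in its window. In its own introns, 2 were shared: one at 13698 bp with scores of 134 and 31, printed above, which held an IRF match, and one at 25738 bp with 93 and 28. A pair stood upstream at 12562 bp, with scores of 136 and 35, and 15122 bp, with 130 and 30. The first of these, also printed above, was the strongest of the window outside coding starts, with a mean rank of 71.0. Further upstream lies Bst1 (CD157), which encodes a related enzyme and had shared peaks at 2 of its starts, with scores of 105 and 29 and of 103 and 32. Scores in replicate 2 spanned a narrow range here, from 25 to 38 over the 12 shared peaks, where the median of that whole list was 35. The strongest peak in replicate 1 only had a score of 122, in a Cd38 intron.

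**Figure D3:**
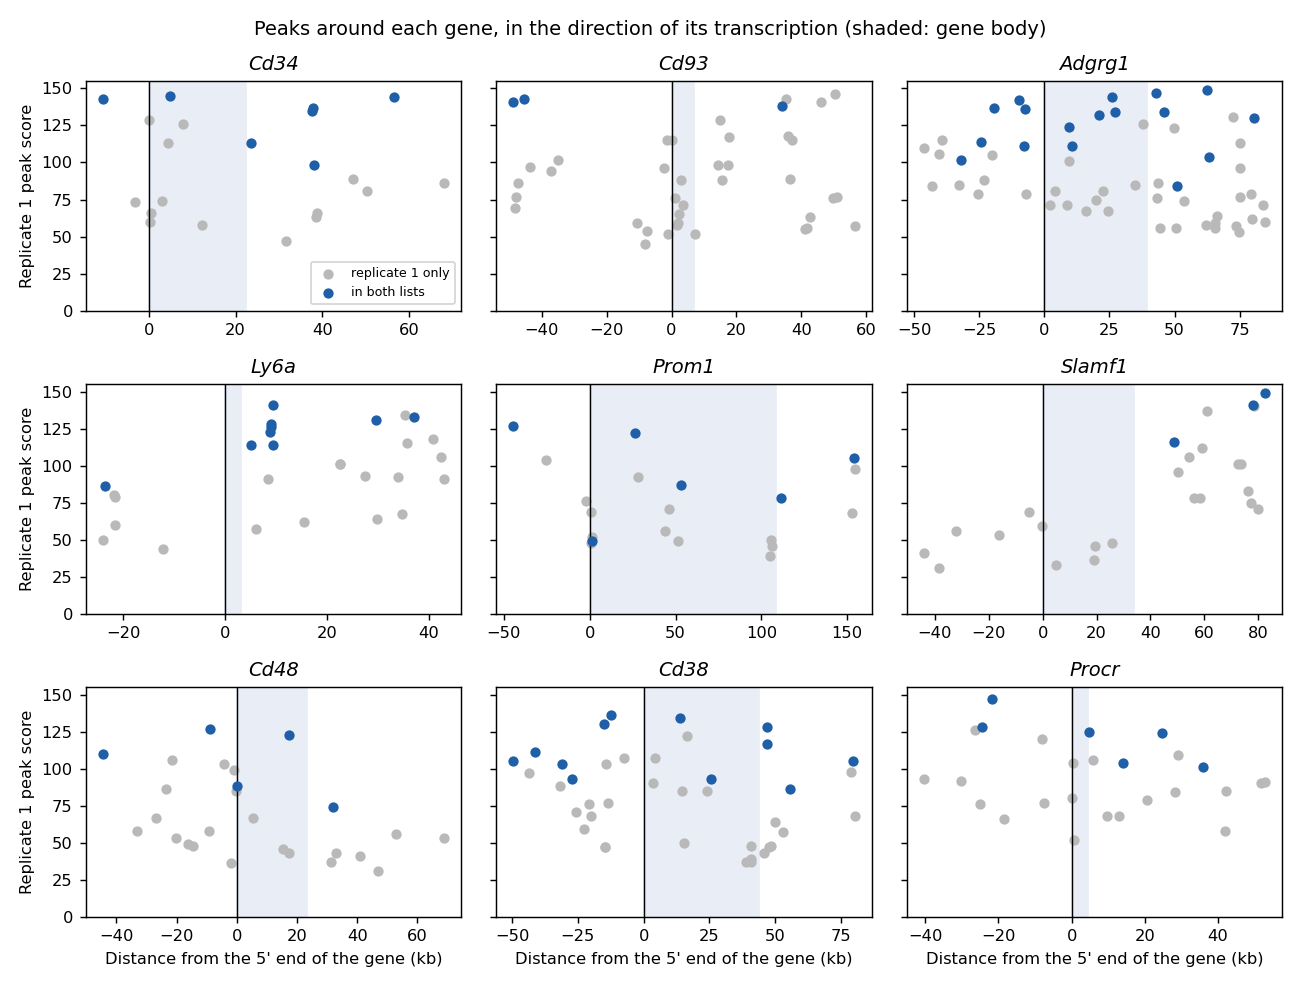
Replicate 1 peak score against distance from the 5′ end (kb, positive in the direction of transcription) for every replicate 1 peak in the window of each gene; blue points overlapped a replicate 2 peak, grey points did not, and the gene body is shaded. Blue points lie away from the 5′ end in every gene but Cd48, where one stands 162 bp from it, and Prom1, where a weak one stands 1441 bp from it.

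Whether a peak recurred went with its score. Shared peaks in the windows had a median score in replicate 1 of 125 (range 49 to 149) and unshared peaks one of 76 (31 to 146), against 123 and 63 in the whole list. Below a score of 60, 1 of 63 peaks was shared (1.59%), which was the weak Prom1 intron peak, against 1.91% of the whole list. From 60 to 79 it was 2 of 58 (3.45% against 7.80%), from 80 to 99 8 of 52 (15.4% against 23.3%), and from 100 to 119 17 of 48 (35.4% against 47.8%). At 120 and over, 39 of 54 were shared (72.2% against 84.6%), and at 140 and over 13 of 17 (76.5% against 95.8%). In each of these ranges the share in the windows was below that of the whole list. Leaving out peaks at coding starts, it was 30 of 43 (69.8%) against 80.5% at 120 and over. By place, 6 of 24 peaks at starts of the 9 genes were shared, 5 of them at Adgrg1 and 1 at Cd48. In the rest of their gene bodies it was 7 of 47, at starts of neighbouring coding genes 7 of 24, and in the rest of the windows 47 of 180 (26.1%). The same shares by place over the whole list are not given, so these places cannot be compared with it. Over the 67 shared peaks, which share their sites by construction, Spearman's rho between both scores was 0.710, given as a description.

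**Figure D4:**
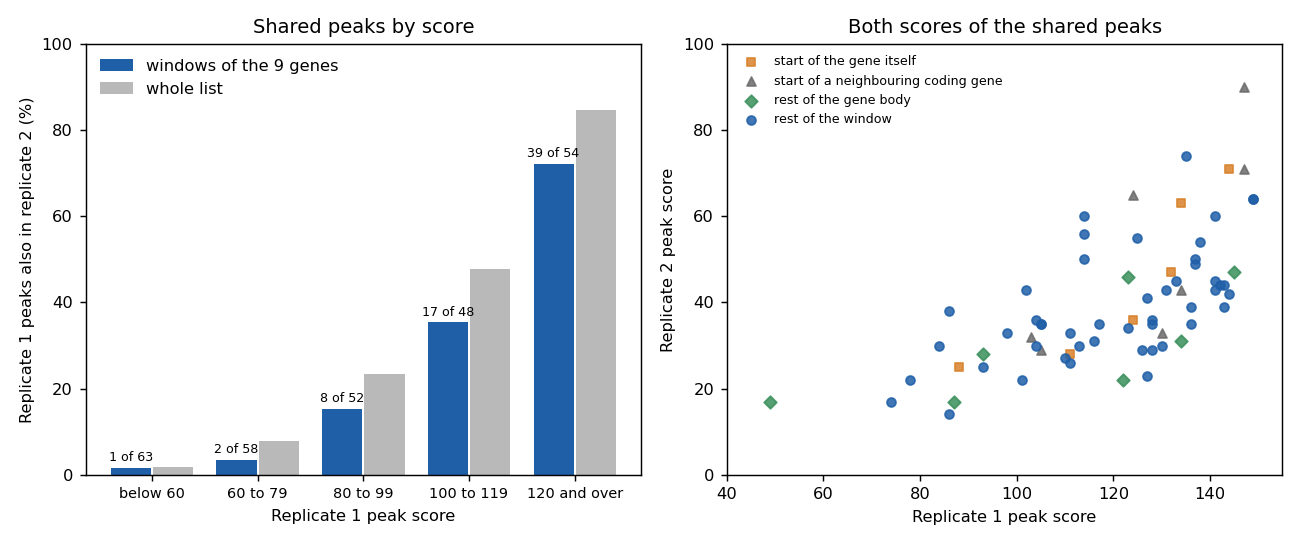
Left: percent of replicate 1 peaks that overlapped a replicate 2 peak, by replicate 1 score, in the 9 windows (blue, with counts) and in the whole list (grey). Right: score in replicate 2 against score in replicate 1 for each shared peak in the windows, marked by where it lies; 1 peak in the windows of both Cd38 and Prom1 is drawn for each. The blue bars rise from 1.59% to 72.2% and lie under the grey ones, and the highest pair of scores, 147 and 90, is at the start of Edem2.

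Other genes of the same families were set beside the 9. Of 30 other surface genes of stem and progenitor cells, 20 had a shared start peak, 7 a start peak in replicate 1 only and 3 none, beside the 57.7% of all coding genes with a shared start and the 2 of the 9 genes above. The best ranked starts were those of Cd82, a tetraspanin, with 148 in replicate 1 and a mean rank of 96.7, Cd244a, a SLAM receptor, with 150 and 95.9, Il1rap, part of the interleukin-1 receptor, with 146 and 95.9, and Cd47, a signal against phagocytosis, with 150 and 95.7. Those with no start peak included Tek (the angiopoietin receptor) and Il2ra (a chain of the interleukin-2 receptor). Their median number of shared peaks outside coding starts was 6.5, against 6 for the 9 genes and 3 for all coding genes. Kit and Flt3, the receptors of stem cell factor and of FLT3 ligand, both had shared starts, with 127 and 140 in replicate 1, and were looked up after their values were seen.

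Of the 9 SLAM family genes, 6 had a shared start peak (Cd48, Ly9, Cd244a, Slamf6, Slamf8 and Slamf9), against 57.7% of all coding genes. The other 3 (Slamf1, Cd84 and Slamf7) had one in replicate 1 only. Slamf1, with 59, and Slamf7, with 58, had the lowest start scores of the family, and Cd244a, with 150, the highest. Of 13 Ly6 family genes found in the annotation, 3 had a shared start (Ly6c2, Ly6k and Lynx1), against the same 57.7%. Another 5 had one in replicate 1 only (Ly6e, Ly6g, Ly6i, Ly6f and Ly6h). The remaining 5 had none (Ly6a, Ly6c1, Ly6d, Gpihbp1 and Ly6l), against 29.4% of all coding genes. Ly6a and Ly6c1, with 9 and 10 shared peaks outside coding starts, had no start peak despite many open sites around them.

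Several of the 9 genes are also active in the lining of blood vessels, and markers of that tissue were read for this reason. Of 8 endothelial markers, 3 had a shared start peak (Pecam1, Cdh5 and Vwf), against 57.7% of all coding genes. Cdh5 and Vwf had it at an internal start only. Kdr had one in replicate 1 only, Cldn5 had peaks of both lists that did not overlap, and Tek, Emcn and Tie1 had none in either list. Of all coding genes, 29.4% had none in either list. The shared starts had scores of 142 in replicate 1 at Pecam1, 138 at Vwf and 130 at Cdh5. Tek also stands in the list of stem and progenitor genes above, and the part of endothelial cells in these counts was not tested. Shared starts were found at 2 of 4 erythroid, 1 of 4 T cell and 1 of 4 B cell markers, beside the same 57.7%. The shared T cell and B cell starts were internal ones, with mean ranks of 93.7 and 84.4. No start peak in either list was found at 1 of 4 erythroid, 2 of 4 T cell (Cd4 and Cd8a) and 1 of 4 B cell markers (Cd79a). In such bulk samples, fewer cells with a site open and less opening in each cell cannot be told apart.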

How the data were processed

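DNase-seq libraries of 2 biological replicates (2 libraries each) were mapped to mm10 and pooled per replicate by the authors, per the text files deposited with the samples. The deposited peak lists give a score per 150 bp peak, and the deposited hotspot lists a −log10 q per region, from a q of 0.05 to a ceiling of 100. The caller and the scale of the score were not given in the sources used here. Depth was unknown, so counts carry no interval, and scores were compared only within a list. Repeated entries (48 and 5) were kept once. Genes were from GENCODE M21 and sequences from RefSeq GRCm38.p6, whose start sequences matched 7 of the 9 genes.

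Overlaps, ranks, motifs and stretches of 32 bases were computed in Python 3.11.15 with numpy 2.4.6, and the scripts were tested on simulated data. With 1 list per replicate no test was run: counts stand beside the same count over all coding genes or peaks. The 9 genes and the lists were chosen with earlier results of these data known. Named by rule were, for each of the 9, its start peak, its strongest shared peak outside coding starts, its strongest peak in replicate 1 only and its neighbours, and of the lists, every gene by start state or, of the 30, the 4 best ranked and those without a peak. Some neighbours, cell type markers and 1 gene of the list of 30 are not reported here. Of 15 Ly6 genes listed, Ly6m and 9030619P08Rik had no match in the annotation. Alternatives were a stricter score, lists of equal length, other overlaps, start distances and flanks, and each list alone.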

Additional observations from a re-analysis of the deposited data

How the results depend on the processing

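The count of the 9 genes with a shared start peak was 2 with an overlap of at least 75 bp and with starts of 500 bp, and 3 within 2.5 kb, where Prom1 joined. It was 1 with only peaks at or above the median score of each list (Adgrg1), 1 with the list of replicate 1 at the length of replicate 2 (Adgrg1) and 1 with only the 5′ end of the gene (Cd48), where coding genes stood between 51.3% and 54.5%. With each list alone it ran from 2 (list of replicate 2) to 7 (list of replicate 1). The median of shared peaks outside coding starts was 3 with the stricter score and 3 with flanks of 10 kb (all coding genes 1 in both), 4 at equal length and 9 with flanks of 100 kb (2 and 6), and with each list alone ran from 6 to 22 (3 and 15). In each setting it stood above that of all coding genes. The shared part of replicate 1 peaks stayed between 21.9% and 25.8% except at equal length, where it was 54.9% against 69.9% of the whole list, with fewer weak peaks entering. Of 36 counts of single genes under other settings, 17 stayed within 1.5 times. With flanks of 10 kb, Cd93 and Slamf1 had 0 shared peaks. The unknown depth, 1 list per replicate and a score on an unknown scale limit every count here. No paired analysis was possible because the result comes from no test.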
